A study of Rattus norvegicus with 44 samples.

Results

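The amino acid transporters described here are *Slc3a2*, *Slc7a5*, *Slc7a1*, *Slc6a9*, *Slc38a2* and *Slc38a4*, 6 genes of the 14217 named on the array. They were taken as every probe set whose platform annotation gives exactly 1 gene, that gene being one of the 6, which gave 10 of the 31042 probe sets tested. *Slc7a1* and *Slc6a9* have 3 probe sets each and the other genes 1 each. The genes had been picked from earlier results of these same arrays, in which *Slc3a2*, *Slc7a1* and *Slc6a9* stood high in liver at 300 mg/kg. Their values in liver at 300 mg/kg against vehicle are therefore a description, with no test, and the other comparisons of liver with vehicle share its vehicle arrays.

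The arrays measured liver RNA and kidney RNA from rats of the Harlan Sprague-Dawley strain, all labelled male, aged 6 to 8 weeks at assignment and fed the NTP-2000 diet. They received crude 4-methylcyclohexanemethanol (MCHM), a coal-washing alcohol mixture, in corn oil by gavage on 5 days at a volume of 5 mL/kg, and were killed on the day after the last dose. Corn oil alone (0 mg/kg) is called vehicle here, and MCHM was given at 0.1, at 1, at 10, at 100, at 300 or at 500 mg/kg. Liver had 27 arrays, 3 at 0.1 mg/kg and 4 at each other dose, and kidney had 17 arrays, 3 at 0, 300 and 500 mg/kg and 2 at each other dose.

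An amino acid transporter moves amino acids across the plasma membrane. *Slc3a2* encodes a heavy chain that carries light chains such as the product of *Slc7a5* to the cell surface, where the pair exchanges large neutral amino acids. *Slc7a1* encodes a uniporter of arginine, lysine and ornithine, *Slc6a9* a sodium- and chloride-coupled glycine transporter, and *Slc38a2* and *Slc38a4* sodium-coupled carriers of small neutral amino acids, known as system A. Liver takes up amino acids from portal blood for protein synthesis, gluconeogenesis and urea formation, and *Slc38a4* is known as a liver transporter. In cultured mammalian cells, a shortage of amino acids or stress in the endoplasmic reticulum raises the transcription factor ATF4, and *Slc3a2*, *Slc7a5*, *Slc7a1*, *Slc6a9* and *Slc38a2* are among the genes known to answer to it.

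Promoter sequence is shown for the 3 genes that stood highest above vehicle in liver at 300 mg/kg. RefSeq's GRCr8 assembly places these stretches, the 120 bases before each annotated start, at chr12:11664368-11664487 on the plus strand for *Slc7a1*, at chr1:215048065-215048184 on the minus strand for *Slc3a2* and at chr5:136659956-136660075 on the plus strand for *Slc6a9*. Each reads 5′ to 3′ along the gene, and capitals mark a match to the motif searched.
Slc7a1: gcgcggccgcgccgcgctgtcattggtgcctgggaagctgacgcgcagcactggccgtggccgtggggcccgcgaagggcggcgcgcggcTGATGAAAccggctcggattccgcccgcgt
Slc3a2: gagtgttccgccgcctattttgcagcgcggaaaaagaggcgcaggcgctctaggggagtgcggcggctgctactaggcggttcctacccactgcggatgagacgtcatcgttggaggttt
Slc6a9: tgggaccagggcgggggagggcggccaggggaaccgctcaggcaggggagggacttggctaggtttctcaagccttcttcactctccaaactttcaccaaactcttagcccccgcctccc
The motif TGATGNAA, the form of the joint ATF and C/EBP site of amino acid response genes, was searched on both strands from 250 bases before to 50 after each start. It occurred in the *Slc7a1* window alone of the members' windows, as TGATGAAA with its first base 30 bases before the start. Of all 33469 promoter windows of the same length, 1332 (3.98%) hold it. The E-box CACGTG, which reads the same on both strands, was in the *Slc7a5* window alone, 179 bases before the start, and in 2148 (6.42%) of all windows. *Slc3a2* has another annotated start, with its stretch at chr1:215039671-215039790 on the minus strand, which is not shown. The window of that start was searched too and held neither motif. A match is a stretch of letters, and no binding was measured.

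Values are log2 expression after RMA, a method that corrects background, brings arrays to like distributions and summarises probes into probe sets. A difference of 1 is a doubling, and each gene is represented by whichever of its probe sets was brightest on average in that organ. Adjusted p-values are from limma, over all 31042 probe sets, with a threshold of 0.05, and the number of arrays limits their precision. Tissues were bulk, so fewer cells of a type and less RNA per cell cannot be told apart. Liver arrays carried the 8 hepatocyte markers at a mean of 12.82 to 13.24, and kidney arrays the 8 tubule markers at 12.17 to 12.56. Some other lists lay apart from vehicle at some doses, although none of their genes passed the threshold at any dose. The mean of 6 stellate cell and fibroblast markers in liver was below all vehicle arrays (7.38 to 7.72) at 300 mg/kg (at most 7.31) and likewise with the top dose, 500 mg/kg (7.07 to 7.26), and that of 7 lymphocyte markers was 5.03 to 5.13 at 500 mg/kg, also below vehicle (5.18 to 5.32). In kidney the 7 macrophage markers lay below vehicle (5.91 to 6.09) at 0.1 (5.85 to 5.86), 300 (5.77 to 5.81) and 500 mg/kg (5.55 to 5.89), and the lymphocyte markers did at 500 mg/kg (4.60 to 4.68, against 4.79 to 4.89 with vehicle). The stellate cell and fibroblast list lay above vehicle in kidney at 1 mg/kg. Only the groups that lay apart are named here, out of all lists and doses in both organs. Among single probe sets in kidney, 10.1% lay wholly above vehicle at 0.1 mg/kg and 11.5% at 1 mg/kg, with 2 dosed arrays each. How often lists of other genes lie apart was not computed. The part of the listed cell types in the members' values was not tested.

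A few arrays stood apart. *Xist*, the RNA of an inactivated X chromosome, was 8.25 in replicate 2 of the liver vehicle group and 6.95 in replicate 2 of the kidney vehicle group, against 2.79 to 3.27 in the other 26 liver arrays and 2.68 to 3.02 in the other 16 kidney arrays, at odds with the label of male. Kidney replicate 1 at 1 mg/kg read 7.67 for the mean of the 8 hepatocyte markers, against 4.80 to 5.23 in the other 16 kidney arrays. Its *Alb* (serum albumin) was 11.06, against at most 5.86 in the other kidney arrays, and 6 of the 8 markers lay above every other kidney array. The values that these arrays moved most are also given without them. Without kidney vehicle replicate 1, kidney comparisons with vehicle called up to 616 probe sets in place of 0, at 500 mg/kg, but no member.

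In liver, *Slc3a2*, *Slc7a1* and *Slc6a9* had their highest group means at 300 mg/kg and lower means at 500 mg/kg. *Slc3a2*, the heavy chain, read 9.45, 9.39, 9.53 and 9.57 with vehicle, 9.92, 10.05 and 9.88 at 0.1 mg/kg, 9.66, 10.02, 9.79 and 9.30 at 1 mg/kg, then 10.19, 9.79, 9.91 and 9.88 at 10 mg/kg. At the higher doses it read 9.76, 10.03, 10.39 and 10.12 at 100 mg/kg, 10.42, 10.45, 10.30 and 10.05 at 300 mg/kg, then 9.79, 9.81, 9.62 and 9.69 at 500 mg/kg. Of the 23 dosed liver arrays 22 lay above every vehicle array, and the exception, replicate 4 at 1 mg/kg, lay below all of them. Such counts over all doses, here and for the genes below, include the 300 mg/kg and vehicle arrays that had a part in choosing the genes. The choice favoured high counts for *Slc3a2*, *Slc7a1* and *Slc6a9*, and the share of all probe sets with such counts was not computed. At 300 mg/kg the mean was 10.30 ± 0.18 (SD, n = 4), against 9.48 ± 0.083 (n = 4) with vehicle, a difference of 0.82 (SE 0.13). The 500 mg/kg mean was 9.73 ± 0.089 (n = 4), and the highest array at 500 mg/kg, 9.81, was below the lowest at 300 mg/kg, 10.05. The 300 mg/kg arrays had a part in choosing this gene. These doses were not tested against each other, and the share of all probe sets with such a gap was not computed.

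*Slc7a1*, the cationic amino acid transporter, had a like profile. It read 5.63, 5.95, 5.75 and 5.67 with vehicle, 6.23, 6.29 and 6.72 at 0.1 mg/kg, 6.18, 6.08, 6.16 and 5.88 at 1 mg/kg, then 6.24, 5.99, 6.68 and 6.08 at 10 mg/kg. From 100 mg/kg upward it read 6.18, 6.11, 6.40 and 6.87 at 100 mg/kg, 6.37, 6.57, 7.04 and 6.35 at 300 mg/kg, then 5.88, 5.96, 6.11 and 6.34 at 500 mg/kg. Of the 23 dosed arrays 21 exceeded every vehicle array, and the others, 1 at 1 mg/kg and 1 at 500 mg/kg, lay within the vehicle range, whose top is replicate 2, the array with high *Xist*. Without that array all 23 lay above vehicle. These counts are for 1368392_at, the probe set used here. By 1368391_at, arrays of 5.37 at 100 mg/kg, 5.69 and 5.57 at 1 mg/kg and 5.80 at 500 mg/kg lay within the vehicle range. That range, 5.28 to 5.84, is the same without replicate 2. By 1368392_at the mean was 6.58 ± 0.32 (SD, n = 4) at 300 mg/kg, against 5.75 ± 0.14 (n = 4) with vehicle, a difference of 0.83 (SE 0.17).

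*Slc6a9*, the glycine transporter, read 7.15, 7.20, 7.16 and 7.40 with vehicle, 7.81, 7.52 and 7.34 at 0.1 mg/kg, 7.33, 7.39, 7.46 and 7.40 at 1 mg/kg, then 7.71, 7.37, 7.22 and 7.47 at 10 mg/kg. It read 7.68, 7.67, 7.92 and 7.56 at 100 mg/kg, 7.84, 7.99, 8.14 and 7.63 at 300 mg/kg, then 7.83, 7.54, 7.49 and 7.55 at 500 mg/kg. All 12 arrays at 100, 300 and 500 mg/kg lay above the vehicle arrays, while the groups at 0.1, 1 and 10 mg/kg overlapped them. The 300 mg/kg mean was 7.90 ± 0.22 (SD, n = 4), against 7.23 ± 0.12 (n = 4) with vehicle, a difference of 0.67 (SE 0.12).

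**Figure D1:**
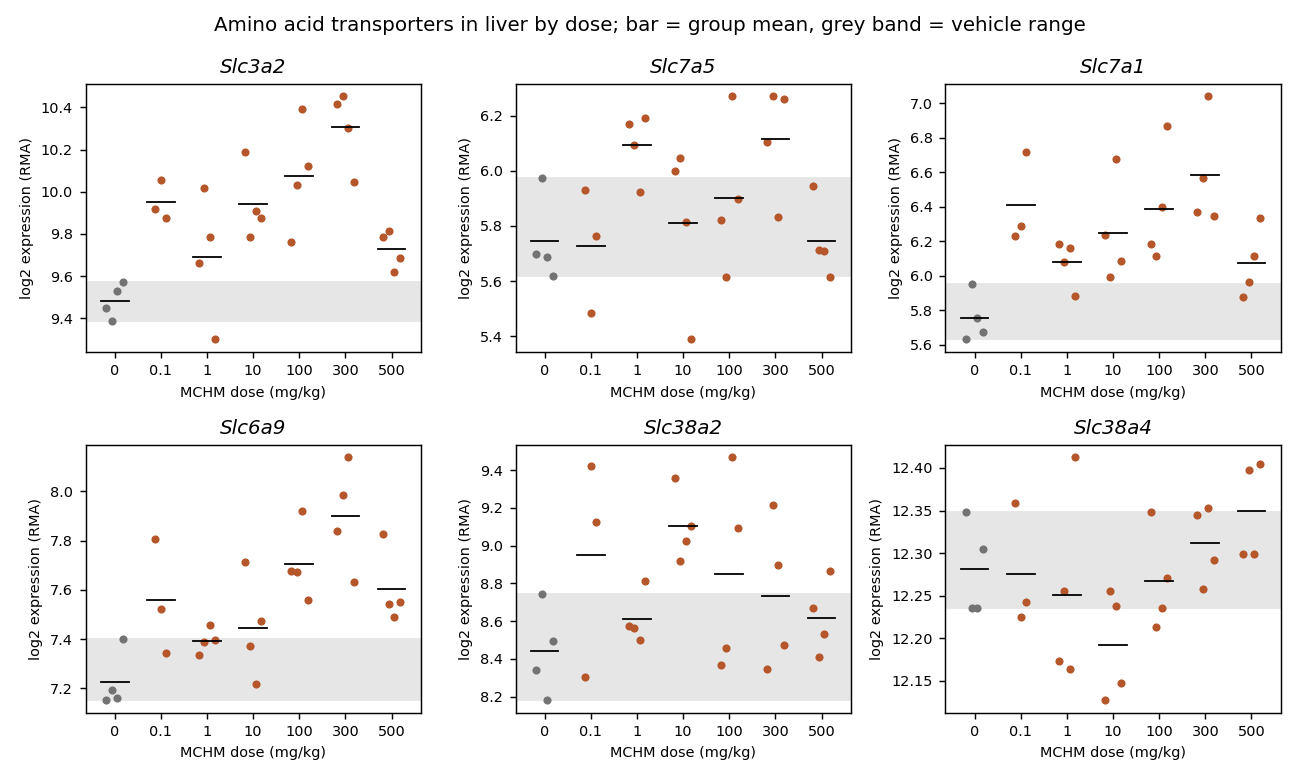
Log2 expression of the 6 genes in each liver array (points) by MCHM dose in mg/kg, doses spaced evenly, with group means as bars and the range of the 4 vehicle arrays as a grey band; the vertical scales differ between genes. Of the 23 dosed arrays, 22 lie above the band for Slc3a2, 21 for Slc7a1 and 17 for Slc6a9, and 6 for Slc38a4.

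*Slc7a5*, the light chain of large neutral amino acid exchange, read 6.10, 6.27, 5.83 and 6.26 at 300 mg/kg, against 5.70, 5.98, 5.69 and 5.62 with vehicle, and the groups overlapped. Of the 23 dosed arrays 9 lay above every vehicle array, and 19 did without vehicle replicate 2, the array with high *Xist* (5.98). Its difference at 300 mg/kg was 0.37 (SE 0.14), and at 1 mg/kg, where arrays read 6.17, 6.09, 5.92 and 6.19, the difference was 0.35. The 500 mg/kg arrays lay at 5.94, 5.71, 5.71 and 5.61, a difference of 0.0013 with a 95% interval of -0.29 to 0.30. By group mean, *Slc7a5* and its partner *Slc3a2* therefore did not have the same order of doses, and differences between doses were not tested. For *Slc7a5* the means at 300 and 1 mg/kg led, at 6.12 ± 0.20 (SD, n = 4) and 6.09 ± 0.12 (n = 4), and those at 500, 0 and 0.1 mg/kg came last, at 5.75 ± 0.14 (n = 4), 5.74 ± 0.16 (n = 4) and 5.73 ± 0.23 (n = 3). Without vehicle replicate 2 the differences from vehicle were 0.078 at 500 mg/kg and 0.059 at 0.1 mg/kg, so vehicle then came last.

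The system A carriers differed in spread. *Slc38a2* read 8.34, 8.74, 8.18 and 8.50 with vehicle, 8.30, 9.42 and 9.13 at 0.1 mg/kg, 8.57, 8.56, 8.50 and 8.81 at 1 mg/kg, then 9.36, 8.92, 9.02 and 9.10 at 10 mg/kg. Higher doses gave 8.37, 8.46, 9.47 and 9.10 at 100 mg/kg, 8.35, 9.22, 8.90 and 8.47 at 300 mg/kg, then 8.67, 8.41, 8.53 and 8.87 at 500 mg/kg. Its highest mean was at 10 mg/kg, 9.10 ± 0.19 (SD, n = 4), the only dose at which all arrays lay above vehicle (8.44 ± 0.24, n = 4). Over all doses 12 of 23 arrays did, and 17 without vehicle replicate 2 (8.74). *Slc38a4* stayed between 12.13 and 12.41 in all 27 liver arrays, and its group means ran from 12.19 at 10 mg/kg to 12.35 at 500 mg/kg. The vehicle mean was 12.28 ± 0.056 (SD, n = 4), and 6 dosed arrays lay above and 7 below the vehicle range.

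Ordered by group mean, 300 mg/kg came first for *Slc3a2*, *Slc7a1*, *Slc6a9* and *Slc7a5*, 10 mg/kg for *Slc38a2* and 500 mg/kg for *Slc38a4*. Vehicle came last for *Slc3a2*, *Slc7a1*, *Slc6a9* and *Slc38a2*. For *Slc3a2*, *Slc7a1* and *Slc6a9*, picked for standing high at 300 mg/kg, the choice itself favoured 300 mg/kg as first and vehicle as last. In the middle of these orders neighbouring groups overlapped. For *Slc3a2* the means at 0.1 and 10 mg/kg were 9.95 ± 0.093 (SD, n = 3) and 9.94 ± 0.17 (n = 4). Means of *Slc7a1* at 1 and 500 mg/kg were 6.08 ± 0.14 and 6.07 ± 0.20 (SD, n = 4 each).

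Against vehicle, no member passed the threshold in liver at 500, 100, 10, 1 or 0.1 mg/kg. With 500 mg/kg, where 0.177% of probe sets were called, the difference was 0.24 for *Slc3a2* (95% interval -0.026 to 0.51, adjusted p = 0.62), and 0.38 for *Slc6a9* (0.13 to 0.62, adjusted p = 0.271). For *Slc7a1* it was 0.32 (-0.029 to 0.67, adjusted p = 0.611). At 100 mg/kg, where 0% of probe sets were called, the differences were 0.59 (SE 0.13) for *Slc3a2*, 0.64 (SE 0.17) for *Slc7a1* and 0.48 (SE 0.12) for *Slc6a9*, each with an adjusted p of 0.523. Calls also stood at 0% at 10, 1 and 0.1 mg/kg. The largest member differences there were 0.66 for *Slc38a2* at 10 mg/kg and 0.66 for *Slc7a1* at 0.1 mg/kg (adjusted p = 0.806 and 0.674). At an unadjusted p under 0.05, members numbered 1 at 500, 3 at 100, 3 at 10, 1 at 1 and 4 at 0.1 mg/kg, where 8.99%, 6.03%, 5.55%, 5.04% and 5.1% of all probe sets passed in either direction. These 5 comparisons share the vehicle arrays with each other and with the one that chose the members.

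All 4 dosed arrays lay above all 4 vehicle arrays at 500 mg/kg for *Slc3a2* and *Slc6a9*, as for 3.4% of all probe sets. At 100 mg/kg this held for *Slc3a2*, *Slc6a9* and, by 1368392_at but not by 1368391_at, *Slc7a1* (1.75% of probe sets). At 10 mg/kg it held for *Slc3a2*, *Slc7a1* and *Slc38a2* (1.85%). At 0.1 mg/kg, with 3 dosed arrays, it held for *Slc3a2* and *Slc7a1* (3.71%), and at 1 mg/kg for no member (1.26%). With 300 mg/kg it held for *Slc3a2*, *Slc7a1* and *Slc6a9* (3.86%), and there 0.122% of probe sets passed the threshold of adjusted p, which is given as background alone because that comparison chose the members. Without liver vehicle replicate 2, the array with high *Xist*, the differences at 300 mg/kg were 0.79 for *Slc3a2*, 0.90 for *Slc7a1* and 0.66 for *Slc6a9*. Without it, those at 500 mg/kg were 0.21, 0.39 and 0.36, with adjusted p of 0.769 for *Slc3a2*, 0.632 for *Slc7a1* and 0.474 for *Slc6a9*. Over all probe sets, leaving out that array left 0 called at 300 mg/kg in place of 38, and 14 at 500 mg/kg in place of 55.

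The other probe sets of *Slc7a1* and *Slc6a9* did not all behave alike. For *Slc7a1* the probe set 1368392_at gives the values above. The equally bright 1368391_at read 6.28, 6.73, 7.67 and 6.64 at 300 mg/kg, against 5.28, 5.69, 5.69 and 5.84 with vehicle, a difference of 1.20 (SE 0.31). The third, 1387167_at, with a vehicle mean of 3.88 ± 0.10 (SD, n = 4), differed by -0.068 at 300 mg/kg. The *Slc6a9* values above are those of 1373787_at. Its 1369772_at differed by 0.068 and 1387693_a_at by 0.19 at 300 mg/kg, and at 500 mg/kg these differed by -0.083 (adjusted p = 0.896) and 0.014 (adjusted p = 0.99). The profile of *Slc6a9* by dose thus rests on 1 of its 3 probe sets, and that of *Slc7a1* on 2 of 3.

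**Figure D2:**
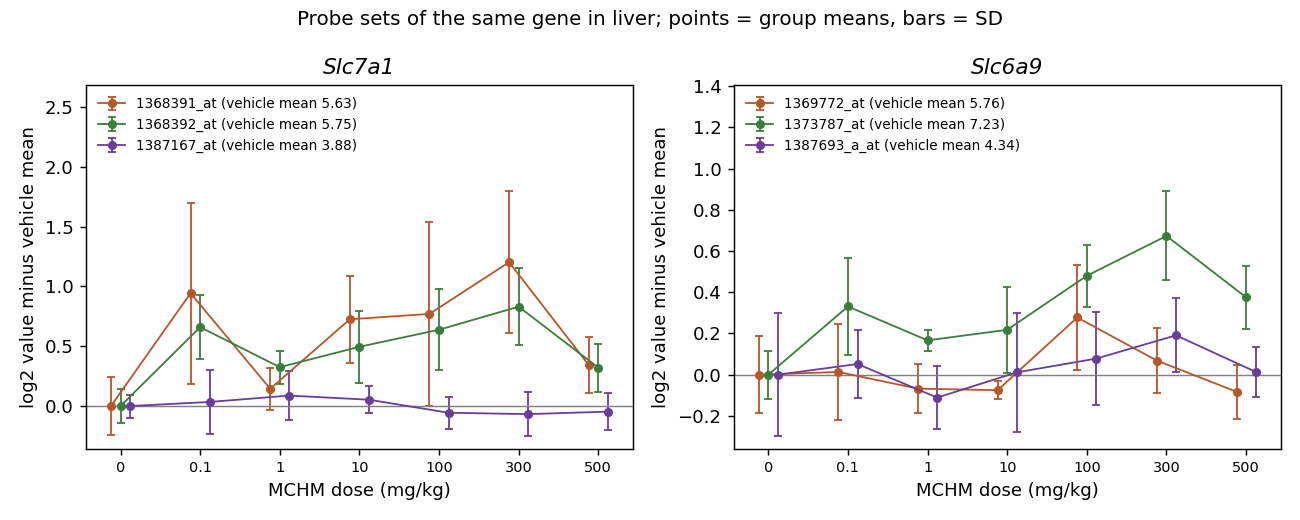
Mean log2 value minus the vehicle mean in liver for each probe set of Slc7a1 (left) and Slc6a9 (right) by MCHM dose in mg/kg, doses spaced evenly, with SD as bars. At 300 mg/kg the probe sets of Slc7a1 stand at 1.20, 0.83 and -0.068, and those of Slc6a9 at 0.068, 0.67 and 0.19.

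To compare doses outside the comparison that chose the genes, 500 and 100 mg/kg in liver were each set against the 11 arrays at 0.1, 1 and 10 mg/kg. Earlier results of these data were known when the genes were chosen. The means compared leave out the vehicle and 300 mg/kg arrays, although the estimate of spread uses all 27 liver arrays. No member passed in either contrast, nor in fits of the compared groups alone, where adjusted p was 0.576 or above. For 500 mg/kg, where 0.48% of probe sets were called, the differences were -0.13 for *Slc3a2* (95% interval -0.36 to 0.089, adjusted p = 0.709) and 0.14 for *Slc6a9* (-0.064 to 0.34, adjusted p = 0.658). *Slc7a1* differed by -0.17 (-0.46 to 0.12), *Slc38a2* by -0.27 (-0.65 to 0.12), *Slc7a5* by -0.13 (-0.38 to 0.11), and *Slc38a4* by 0.11 (adjusted p = 0.475). At 100 mg/kg, with 0% called, *Slc6a9* differed by 0.24 (0.041 to 0.44, unadjusted p = 0.0201, adjusted p = 0.999) and *Slc3a2* by 0.22 (-0.0064 to 0.44). The remaining members lay between -0.041 (*Slc38a2*) and 0.14 (*Slc7a1*). No member passed an unadjusted p under 0.05 at 500 mg/kg in this contrast, and *Slc6a9* alone did at 100 mg/kg.

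In kidney, no dose moved a member past the threshold, and 0% of probe sets were called at each of the 6 doses, although 10.1% of them had an unadjusted p under 0.05 at 500 mg/kg and 3.62% at 300 mg/kg. *Slc3a2* read 10.99, 11.41 and 11.09 with vehicle, 10.98, 11.22 and 10.95 at 300 mg/kg, then 11.08, 10.69 and 10.89 at 500 mg/kg. Its differences were -0.28 at 500 mg/kg (95% interval -0.63 to 0.062, adjusted p = 0.583) and -0.11 at 300 mg/kg (-0.46 to 0.23, adjusted p = 0.999). None of the 14 dosed kidney arrays lay above the vehicle range of *Slc3a2*, and 7 lay below it. The top of that range, 11.41, is the vehicle array with high *Xist*. Without it 4 dosed arrays lay above vehicle and 7 below, and the differences were -0.16 at 500 mg/kg, 0.0091 at 300 mg/kg, -0.093 at 100 mg/kg, 0.054 at 10 mg/kg, -0.12 at 1 mg/kg and 0.036 at 0.1 mg/kg.

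*Slc7a1* in kidney, given there by 1368391_at, read 6.14, 6.36 and 6.55 at 500 mg/kg, against 6.12, 6.39 and 6.56 with vehicle, a difference of -0.0097 (95% interval -0.38 to 0.36), and of 0.0064 without the vehicle array with high *Xist*. *Slc6a9* read 6.66, 6.84 and 6.23 at 300 mg/kg, against 6.05, 6.12 and 6.59 with vehicle, a difference of 0.32 (-0.068 to 0.72, adjusted p = 0.999). Its difference at 500 mg/kg was -0.11 (-0.50 to 0.28). At 300 mg/kg the interval of *Slc7a1* was -0.33 to 0.40 around 0.036, so a kidney change inside these bounds was not distinguishable from none with these arrays. *Slc7a5* differed by -0.20 at 500 mg/kg and -0.12 at 300 mg/kg, *Slc38a2* by 0.11 at 500 mg/kg and -0.27 at 300 mg/kg, and *Slc38a4* by 0.29 at 500 mg/kg and 0.24 at 300 mg/kg. At 0.1 to 100 mg/kg, 23 member differences lay between -0.33 and 0.26, with adjusted p from 0.816 upward. The remaining one was *Slc38a4* at 1 mg/kg.

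**Figure D3:**
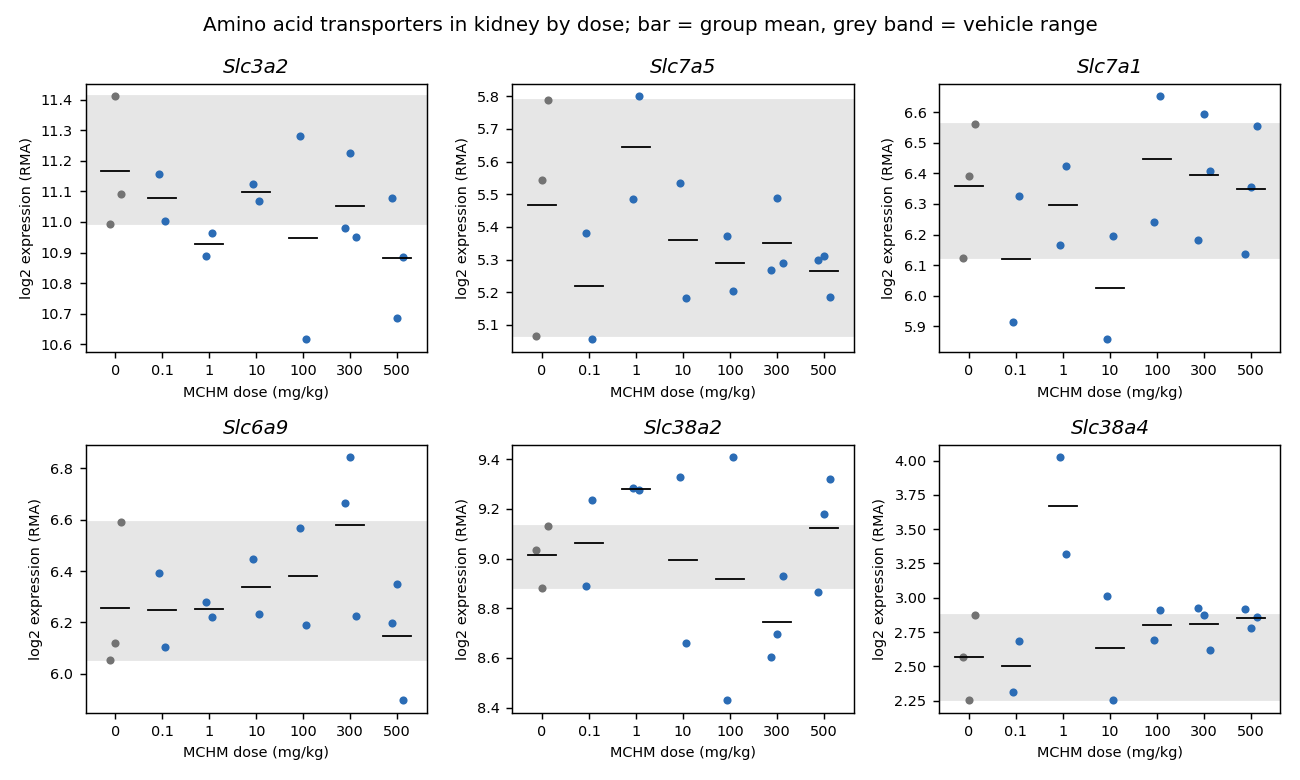
Log2 expression of the 6 genes in each kidney array (points) by MCHM dose in mg/kg, doses spaced evenly, with group means as bars and the range of the 3 vehicle arrays as a grey band; the vertical scales differ between genes. For Slc3a2 no dosed array lies above the band, and Slc38a4 is highest in the 2 arrays at 1 mg/kg.

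*Slc38a4* at 1 mg/kg in kidney read 4.03 in replicate 1 and 3.32 in replicate 2, against 2.57, 2.25 and 2.88 with vehicle, and these were its highest values among the kidney arrays. The vehicle mean exceeded only 3.573% of probe sets, so these values lie near the low end of the array's scale. The difference of 1.11 did not pass (adjusted p = 0.532). The first of these arrays is the one with high hepatocyte markers, while the other had these markers at 4.94, within the range of the remaining kidney arrays. Without replicate 1 the difference was 0.75 (adjusted p = 0.953) and without replicate 2 it was 1.46 (adjusted p = 0.0644), with the lone array assumed to vary like the other groups. Of 84 probe sets over 8 log2 units higher in vehicle liver than in vehicle kidney, 76 were higher in replicate 1 than in every other kidney array. The part of liver RNA in the *Slc38a4* value was not tested. At 1 mg/kg both arrays were also above all vehicle arrays for *Slc38a2*, as for 11.5% of probe sets. For *Slc3a2* both arrays at 1 mg/kg, 10.89 and 10.97, lay below all vehicle arrays (10.99 or above). The share of probe sets lying below was not computed. No member lay wholly above vehicle at 0.1 (10.1% of probe sets), 10 (9.55%), 100 (7.52%), 300 (4%) or 500 mg/kg (7%), and none lay wholly below at these doses.

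**Figure D4:**
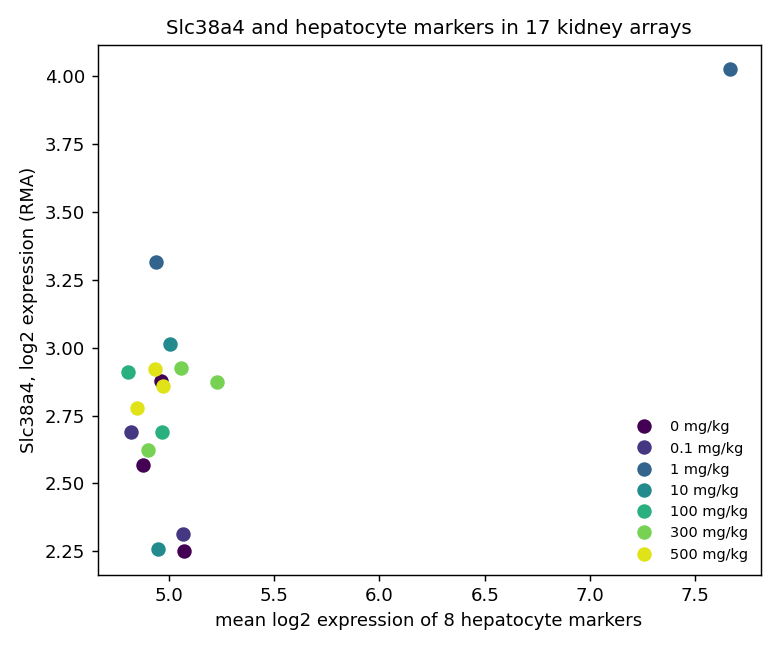
Log2 expression of Slc38a4 (vertical) against the mean log2 expression of 8 hepatocyte markers (horizontal) in the 17 kidney arrays, coloured by MCHM dose. One array at 1 mg/kg stands at 7.67 and 4.03, and the other at 4.94 and 3.32.

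The change in liver at 500 mg/kg was set against that in kidney in 1 fit of all 44 arrays, where 0.029% of probe sets were called. No member passed. The difference of changes was 0.53 for *Slc3a2* (95% interval 0.10 to 0.95, adjusted p = 0.342) and 0.48 for *Slc6a9* (0.059 to 0.91, adjusted p = 0.408), the 2 members with an unadjusted p under 0.05. It was 0.35 for *Slc7a1*, 0.20 for *Slc7a5*, 0.071 for *Slc38a2* and -0.22 for *Slc38a4*. Without the vehicle arrays of high *Xist*, left out 1 at a time, *Slc3a2* stood at 0.49 without the liver array and 0.40 without the kidney array. The labels do not say whether liver and kidney arrays came from the same rats.

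**Figure D5:**
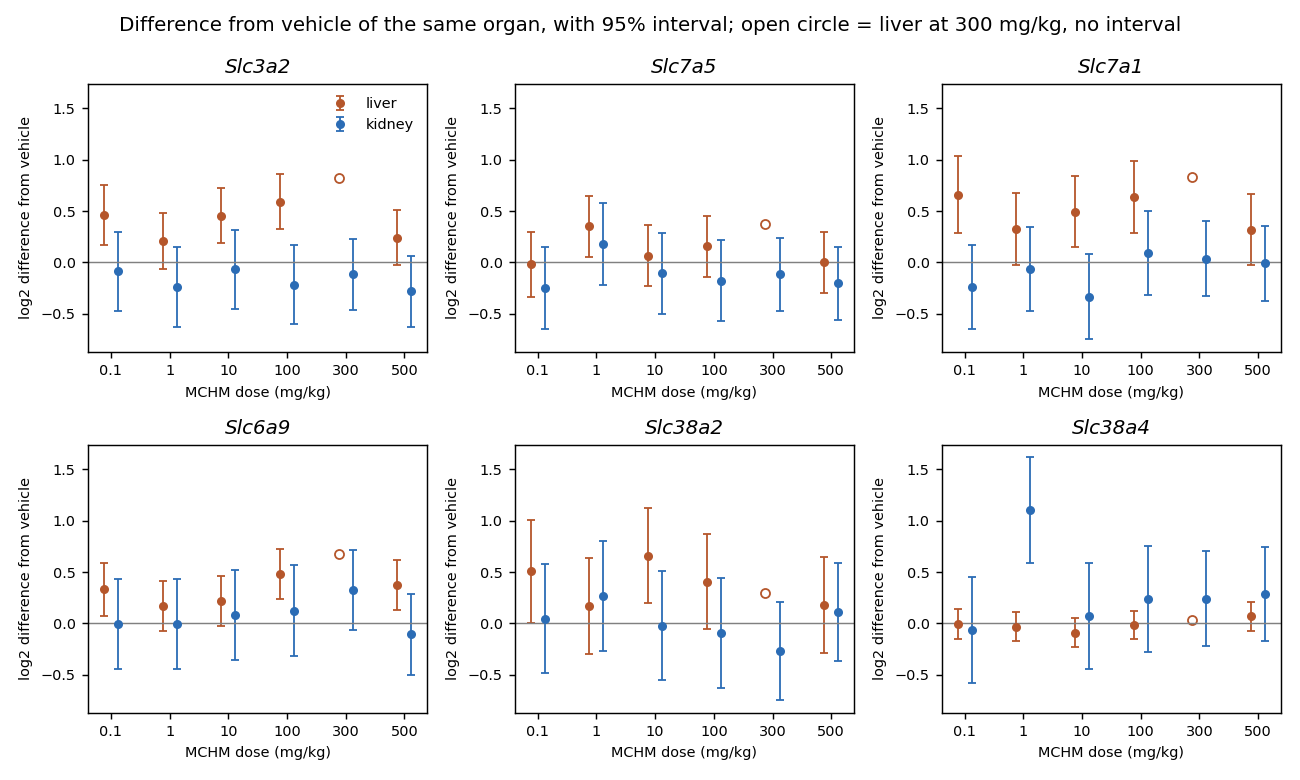
Log2 difference from vehicle of the same organ at each MCHM dose in mg/kg, doses spaced evenly, for the 6 genes, with 95% intervals from limma; the open circle is liver at 300 mg/kg, shown without an interval because it chose the genes. Liver differences of Slc3a2 run from 0.21 to 0.82, and its kidney differences are all below 0, but without the vehicle array with high Xist those at 0.1, 10 and 300 mg/kg are above 0.

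Between the organs of vehicle rats, 5 of 6 members differed, where 61.4% of probe sets were called. *Slc38a4* read 12.35, 12.24, 12.24 and 12.31 in liver, against 2.57, 2.25 and 2.88 in kidney, a difference of 9.72 (SE 0.14, adjusted p = 2.75e-36). Since the kidney value lies near the low end of the scale and was not shown to be above background, its size is best read as a lower bound. *Slc6a9* was also higher in liver, at 7.23 ± 0.12 (SD, n = 4) against 6.25 ± 0.29 (n = 3) in kidney, by 0.97 (SE 0.15, adjusted p = 5.99e-07). *Slc3a2* was lower in liver, at 9.48 ± 0.083 (n = 4) against 11.17 ± 0.22 (n = 3) in kidney, by -1.68 (SE 0.15, adjusted p = 2.39e-12).

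*Slc7a1* and *Slc38a2* passed with less margin. The *Slc7a1* difference was -0.73 by 1368391_at (SE 0.30, adjusted p = 0.034), and by 1368392_at it was -0.29 (adjusted p = 0.178). *Slc38a2* differed by -0.57 (SE 0.24, adjusted p = 0.0386). Without kidney vehicle replicate 2, the array with high *Xist*, *Slc7a1* no longer passed (-0.72, adjusted p = 0.0772), nor did it without kidney vehicle replicate 3 (-0.63, adjusted p = 0.115) or liver vehicle replicate 1 (-0.62, adjusted p = 0.096). *Slc38a2* did not pass without kidney vehicle replicates 1 or 3 or without liver vehicle replicates 1, 3 or 4, each left out alone (-0.59 to -0.49, adjusted p = 0.0511 to 0.111). A second quantile normalization over both organs ended both calls, with -0.61 for *Slc7a1* (adjusted p = 0.0939) and -0.37 for *Slc38a2* (adjusted p = 0.177). *Slc7a5* differed by 0.28 (-0.044 to 0.60, adjusted p = 0.127), and by 0.44 without kidney vehicle replicate 3 (adjusted p = 0.0307). The 75th percentile of the arrays was 7.14 to 7.26 in liver and 7.33 to 7.48 in kidney, so the organs did not share 1 distribution, and over all probe sets the median difference was 0.11.

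A list of 47 other amino acid transporters gave 42 measured genes, of which none passed the threshold in any comparison of dose in liver or kidney. In liver at 500 mg/kg 22 of the 42 lay above vehicle, with a median difference of 0.018, beside 51.19% and 0.0044 over all probe sets. The largest there were -0.55 for *Slc6a6*, the taurine transporter (adjusted p = 0.274), and 0.41 for *Slc1a4*, an exchanger of alanine, serine and cysteine (adjusted p = 0.707). The list's median at 300 mg/kg was 0.016, and its highest members were *Slc7a11*, the light chain of cystine and glutamate exchange that also pairs with the *Slc3a2* product, and *Slc1a4*. *Slc7a11* averaged 5.03 ± 0.28 (SD, n = 4) at 300 mg/kg, against 4.09 ± 0.50 (n = 4) with vehicle, a difference of 0.93 (adjusted p = 0.12). *Slc1a4* averaged 6.34 ± 0.48 (n = 4), against 5.46 ± 0.27 (n = 4) with vehicle, a difference of 0.88 (adjusted p = 0.206). *Slc7a11* was back at 4.19 ± 0.15 (n = 4) at 500 mg/kg.

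Between vehicle organs 15 of the 42 were higher and 14 lower in liver, with a median of 0.074 beside 0.11 over all probe sets. The 5 with the smallest p were all lower in liver than in kidney. They were *Slc7a9* (-8.10) and *Slc3a1* (-7.86), the light and heavy chain of cystine reabsorption, *Slc7a13* (-8.56), *Slc7a7* (-5.72), a light chain for cationic amino acids that pairs with the *Slc3a2* product, and *Slc1a1* (-6.31), a glutamate and aspartate carrier.

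Genes known as targets or parts of the amino acid response are given beside the members. *Asns*, asparagine synthetase, averaged 7.38 ± 0.52 with vehicle, 8.12 ± 0.38 at 100 mg/kg, 8.74 ± 0.24 at 300 mg/kg and 7.56 ± 0.47 at 500 mg/kg in liver (SD, n = 4 each). The differences from vehicle at 300 mg/kg were 1.36 for *Asns*, 1.41 for the pseudokinase gene *Trib3*, 1.42 for *Psat1* and 1.08 for *Phgdh*, both of serine synthesis, and 0.81 for *Chac1*. *Ddit3* differed by 0.35, *Atf4* by 0.27 and *Sesn2* by -0.086 there. By group mean these genes did not share 1 order of doses. *Trib3* differed by 1.06 at 0.1 mg/kg (SE 0.48), 1.44 at 10 mg/kg and 1.17 at 100 mg/kg (SE 0.44 each). *Chac1* differed by 1.30 at 0.1 mg/kg (SE 0.71), 1.27 at 10 mg/kg and 1.07 at 100 mg/kg (SE 0.66 each), more than at 300 mg/kg. Its SD in these groups was 1.70, 1.54 and 1.45, and the lowest array of each lay within the vehicle range, 6.07 to 6.74. Differences between these doses were not tested. *Asns*, *Psat1* and *Phgdh* had their largest difference at 300 mg/kg. None of the 8 passed at any dose in either organ. *Asns* differed at 500 mg/kg by 0.18 (adjusted p = 0.917) in liver and by 0.69 (adjusted p = 0.45) in kidney.

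Over the 27 liver arrays, the genes whose values were most like those of *Slc3a2*, out of 9610 genes, were *Gars1* (Pearson r = 0.89), *Asns* (0.88) and *Psat1* (0.88). With dose group means removed they were *Plekha1* (0.86), *Psat1* (0.84) and *Mthfd2* (0.82). For *Slc7a1* the genes were *Tmem186* (0.83), *Slc1a4* (0.80) and *Lmo4* (0.79), and with means removed *Rbpj* (0.79), *Sde2* (0.79) and *Hspa1a* (0.72). The *Slc6a9* list held *Mrps18b* (0.77), *Eif2s2* (0.76) and *Sars1* (0.75), then *Nrarp* (0.71), *Asah2* (0.69) and *Zfp385a* (0.68). Those of *Slc38a2* were *Rnf111* (0.82), *Pafah1b2* (0.81) and *Chac1* (0.80), then *Siah1* (0.84), *Thap12* (0.82) and *Pafah1b2* (0.81). The values for *Slc7a5* were lower, led by *Polg2* (0.67) and *Entpd6* (0.65), and *Slc38a4* was led by *Kcnq5* in both (0.67 and 0.72). All genes of an array share its RNA and normalization, and the leaders of so many genes have a high r by selection.

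Among the members themselves, deviations from the dose group mean were compared in 15 pairs per organ, and none passed Benjamini-Hochberg adjustment. The strongest by Pearson's r in liver were *Slc3a2* with *Slc38a4*, at r = -0.46 and Spearman's rho = -0.36 (n = 27, permutation p = 0.0728 and 0.114, adjusted 0.43 and 0.511), and *Slc3a2* with *Slc6a9*, at r = 0.43 and rho = 0.42 (permutation p = 0.0218 and 0.0517, adjusted 0.327 and 0.388). Without the 2 arrays farthest from the median of *Slc3a2* these r were -0.27 and 0.48. The largest rho in liver was that of *Slc7a1* with *Slc38a2*, at rho = 0.50 and r = 0.42 (permutation p = 0.0355 and 0.106, adjusted 0.388 and 0.43), and r was 0.39 without the 2 arrays farthest in *Slc7a1*. *Slc3a2* and its partner *Slc7a5* had r = 0.086 and rho = 0.023 in liver (permutation p = 0.72 and 0.92). The largest r in kidney was that of *Slc3a2* with *Slc38a2*, at r = -0.69 and rho = -0.64 (n = 17, permutation p = 0.0749 and 0.0534, adjusted 0.561 and 0.401), and r was -0.58 without the 2 farthest arrays. Kidney values of *Slc7a5* and *Slc6a9* had r = 0.67 and rho = 0.66 (n = 17, permutation p = 0.0133 and 0.0129, adjusted 0.199 and 0.193), and r = 0.61 without the 2 farthest arrays.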

How the data were processed

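The deposited table holds log2 expression values that the authors made from Affymetrix rat expression arrays with RMA, per the submitters' processing notes. The RMA software is not given in the sources used here. It is also not stated whether the organs were normalized in 1 run. The series' design text says that samples with a batch effect were taken out first; they were not analysed here. The labels call the arrays of a group biological replicates.

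Of 31099 probe sets 57 controls were left out. Symbols were updated through gene IDs (20758 matched). limma 3.58.1 in R 4.3.3 (lmFit, eBayes) fitted the 7 dose groups of an organ together, and all 44 arrays for contrasts between organs, with two-sided tests and Benjamini-Hochberg adjustment over 31042 probe sets. Within-dose correlations used 100000 permutations within dose groups (NumPy 2.4.6, pandas 2.3.3). Alternatives were a filter on low probe sets, a second quantile normalization, the replicate block, fits of the compared groups alone and leaving out each array. In simulated data the fits returned, in the median, the size of planted changes of a doubling or more. Smaller changes were not simulated. The members' liver differences from vehicle, by the probe sets that represent them, were all below a doubling.

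All 6 members are named, with at most 5 listed transporters past the threshold per comparison, the 3 most alike genes by each measure and 8 response genes. Other listed transporters and *Alb* were picked after their values were seen. The members and lists were chosen with earlier results of these data known.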

Additional observations from a re-analysis of the deposited data

Results flagged for a closer look

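In liver at 0.1 and 10 mg/kg, all dosed arrays lay above the vehicle mean for *Slc3a2* and for *Slc7a1* (1368391_at in both organs), while all dosed kidney arrays lay below theirs. For *Slc3a2* this rests on kidney vehicle replicate 2, the array with high *Xist*. Without the vehicle arrays of high *Xist*, its kidney differences were 0.036 at 0.1 mg/kg, with 1 of 2 arrays above the vehicle mean, and 0.054 at 10 mg/kg, with 2 of 2 above. Those of *Slc7a1* were then -0.22 and -0.32, with 0 of 2 above at either dose. With all vehicle arrays the values were as follows. The liver change minus the kidney change for *Slc3a2* was 0.55 at 0.1 mg/kg (0.46 in liver and -0.087 in kidney), and at 10 mg/kg it was 0.52 (0.45 in liver and -0.069 in kidney). For *Slc7a1* it was 1.18 at 0.1 mg/kg (0.94 in liver and -0.24 in kidney), and at 10 mg/kg 1.06 (0.73 in liver and -0.33 in kidney). Kidney had 2 dosed arrays in each of these groups, and these differences between the organs were not tested. They are 4 of the 30 pairs of gene and dose examined. The share of all probe sets with such opposite signs was not computed, so the count cannot be read as particular to these genes. The liver vehicle arrays also had a part in choosing the genes.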

How the results depend on the processing

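Between vehicle organs 5 members passed, and 3 did after a second quantile normalization. Leaving out 1 array there gave 3 to 5 members, the lowest without liver vehicle replicate 1. No member passed in any other tested comparison under any alternative run. Same-numbered arrays deviated together weakly, with a median r of 0.0186 over 78 liver pairs and 0.055 over 33 kidney pairs, against -0.00691 and -0.0554 for other numbers. In liver 14 pairs and in kidney 12 had r over 0.1, and 21 of 27 liver and 9 of 15 kidney arrays were closer to their own number. The main fits did not take the numbers as pairs, because not every pair was over 0.1. That rule is strict, and failing it does not show that same-numbered arrays are unrelated. The replicate block turned *Slc38a4* at 0.1 mg/kg in liver to 0.0041 and, in kidney, *Slc7a5* at 10 mg/kg to 0.14, *Slc38a2* at 10 mg/kg to 0.53 and *Slc7a1* at 1 mg/kg to 0.0066. It changed no other member's direction and no member's call. With it, 60 probe sets were called at 300 mg/kg in liver in place of 38, and 3 in place of 9 for the organ difference at 500 mg/kg. A second quantile normalization gave *Slc38a4* in liver 0.0030 at 0.1 mg/kg and 0.0032 at 100 mg/kg.

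Other probe sets turned directions as follows, and the cause was not tested. In liver against vehicle, 1387167_at of *Slc7a1* gave -0.047 at 500, -0.068 at 300 and -0.056 at 100 mg/kg, and -0.11 at 100 mg/kg against the low doses. For *Slc6a9*, 1369772_at gave -0.083 at 500, -0.075 at 10 and -0.068 at 1 mg/kg, and -0.039 at 500 mg/kg against the low doses, while 1387693_a_at gave -0.11 at 1 mg/kg. In kidney, 1368392_at of *Slc7a1* gave 0.25 at 500 and -0.0063 at 300 mg/kg, and the other *Slc6a9* probe sets gave -0.18 and -0.11 at 300 mg/kg. At the lower kidney doses, 1368392_at and 1387167_at of *Slc7a1* gave -0.024 and -0.034 at 100 mg/kg. There 1369772_at of *Slc6a9* gave -0.14 at 100, -0.29 at 10 and 0.21 at 0.1 mg/kg, and 1387693_a_at gave 0.31 at 0.1 mg/kg. Between vehicle organs 1387167_at gave 0.22. For the organ difference at 500 mg/kg, 1387167_at gave -0.031 and 1369772_at gave -0.065. In kidney Spearman's rho turned 3 correlations to the opposite sign, at -0.012 for *Slc7a5* with *Slc7a1*, -0.0025 for *Slc7a5* with *Slc38a4* and 0.039 for *Slc7a1* with *Slc38a4*.

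Leaving out 1 array moved some small differences across 0. In liver against vehicle, *Slc7a5* ran from -0.065 to 0.078 at 500, -0.011 to 0.21 at 10 and -0.12 to 0.10 at 0.1 mg/kg, and *Slc38a4* from -0.041 to 0.0082 at 100 and -0.047 to 0.019 at 0.1 mg/kg. At 100 mg/kg against the low doses, *Slc7a5* ran from -0.10 to 0.12, *Slc7a1* from -0.014 to 0.24 and *Slc38a2* from -0.25 to 0.12. In kidney at 500 mg/kg, *Slc7a1* ran from -0.13 to 0.096 and *Slc6a9* from -0.21 to 0.060. In kidney at 300 mg/kg, *Slc3a2* ran from -0.20 to 0.0091, *Slc7a5* from -0.32 to 0.045 and *Slc7a1* from -0.080 to 0.14. In kidney at 100 mg/kg, *Slc3a2* ran from -0.55 to 0.12, *Slc7a1* from -0.12 to 0.29, *Slc6a9* from -0.063 to 0.31 and *Slc38a2* from -0.59 to 0.39. At 10 mg/kg there, *Slc3a2* ran from -0.15 to 0.054, *Slc7a5* from -0.31 to 0.069, *Slc6a9* from -0.023 to 0.25, *Slc38a2* from -0.35 to 0.31 and *Slc38a4* from -0.31 to 0.45. At 1 mg/kg *Slc7a5* ran from -0.023 to 0.34, *Slc7a1* from -0.19 to 0.066 and *Slc6a9* from -0.10 to 0.16. At 0.1 mg/kg *Slc3a2* ran from -0.17 to 0.036, *Slc6a9* from -0.15 to 0.16, *Slc38a2* from -0.13 to 0.22 and *Slc38a4* from -0.25 to 0.12. The organ difference of *Slc38a2* at 500 mg/kg ran from -0.057 to 0.17.

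Counts over all probe sets moved more. At 500 mg/kg in liver 55 were called, 104 among probe sets above the median mean, 1 with the compared groups alone and 9 to 84 with 1 array left out, and against the low doses 149 became 369, 79 and 30 to 146. At 300 mg/kg 38 became 139 above the median mean, 16 after a second quantile normalization, 2 with the compared groups alone and 0 to 22 with 1 array left out. The 0 was without liver vehicle replicate 2, the array with high *Xist*. For the organ difference at 500 mg/kg 9 became 70, 2 with the compared groups alone, and 0 to 746. Between vehicle organs 19047 became 11785 above the median mean. Without kidney vehicle replicate 1, kidney comparisons called 23 to 616 in place of 0. Probe sets were not called above or below background, and groups of 2 kidney arrays limit what could be seen there.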
